A study of Mus musculus with 16 samples.

Results

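The integrated stress response is followed here through 10 genes in microglia sorted from mouse retina, the resident immune cells of that tissue, before and after crush of the optic nerve. The members were taken by name from a table of 55385 genes: Atf4, Atf5, Ddit3, Ddit4, Asns, Trib3, Chac1, Sesn2, Ppp1r15a and Slc7a11. Ddit3 is listed 2 times, as the whole gene and as an entry of 105 bases that lies within its exons, so the 10 names gave 11 entries. RNA sequencing was done on 16 libraries of EGFP-positive cells that were sorted by flow cytometry; all groups are of the strain Iba1-EGFP, a reporter of the microglial and macrophage gene Iba1. There were 4 libraries at each of 4 stages, from untreated mice of 15 weeks (day 0) and from mice at day 2 (13 weeks), day 4 (13 weeks) and day 7 (16 weeks) after the crush. Day 0 mice had no treatment, the 4 stages differ in age as well as in time, and the labels do not tell whether each library is its own animal. A p-value here therefore speaks of the spread among libraries, which may be technical.

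When cells run short of amino acids, misfold proteins in the endoplasmic reticulum, lack haem or sense double-stranded RNA, kinases phosphorylate the translation factor eIF2. Protein synthesis then slows as a whole, while the mRNA of the transcription factor ATF4 is translated more. ATF4 and its partner CHOP, the product of Ddit3, switch on genes for amino acid synthesis and import, for redox defence and for the feedback that ends the response. Much of the control of ATF4 itself is in translation, which a level of RNA does not show.

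FPKM, fragments scaled by gene length and library size, is the unit of every level given here. The libraries held 8647276 to 15708302 reads, so that 1 read counts for 0.0637 to 0.116 FPKM in a gene 1 kb long. The microglial gene Aif1 stood at 130.03 to 960.87 FPKM, but the rod gene Gnat1 also stood at 847.07 to 4957.9 FPKM and the Mueller glia gene Glul at 16.9 to 321.89 FPKM. Over the libraries, 8 monocyte genes summed to 0.381 to 43.8 FPKM, with the defining gene Ccr2 at or under 0.1796 FPKM. RNA of other retinal cells was thus in every library, most of all in day 0 replicate 1, and its part in the results below was not tested except where a value is given. In bulk samples, fewer cells of a type and less RNA per cell cannot be told apart. Replicates 1 and 2 of each day share the first 4 digits of the code in their titles, as do replicates 3 and 4, and these sets are called batch 1 and batch 2. The full codes are not balanced over the days. In batch 1, days 0 and 4 share a full code and days 2 and 7 share another. In batch 2, days 0 and 2 share a full code and days 4 and 7 share another. Day 7 thus shares no full code with day 0, and shares it with day 4 in batch 2 only. The 2 libraries of day 2 in batch 2 have the title prefix F and the others the prefix M. Differences between days were tested with limma on log2(FPKM + 1), and changes are on that log2 scale, in which low genes change less than in FPKM.

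Windows around the transcription starts were searched for the core of the sequence that ATF4 and C/EBP proteins bind together. RefSeq gives a start for all 10 members on the build GRCm38.p6. The core of the C/EBP-ATF response element was searched as TGATGNAA, the antioxidant response element as TGACNNNGC and the cyclic AMP response element as TGACGTCA, on both strands of the 250 bases before and 50 bases after each start. TGATGNAA was found in 4 members, against 3.969% of 32851 windows of all genes: Slc7a11 holds it 2 times, and Asns, Chac1 and Trib3 hold it once each. TGACNNNGC was found in Asns, Sesn2 and Ppp1r15a (12.39% of all windows), and TGACGTCA in Ppp1r15a (1.79% of all windows). No such letters are in the windows of Atf4, Atf5, Ddit3 or Ddit4. A site outside the window, or one with other letters, would be missed, so a member without a match may still hold one. The 250 bases before the start are shown for 3 members with the ATF4-type core, for Ppp1r15a, which holds the cyclic AMP element, and for Ddit3, the member that came nearest to a difference between days, whose window holds none of the motifs. Capitals mark the motifs, and a match describes letters and not a bound site.
Slc7a11 (chr3:50443614-50443863, minus strand): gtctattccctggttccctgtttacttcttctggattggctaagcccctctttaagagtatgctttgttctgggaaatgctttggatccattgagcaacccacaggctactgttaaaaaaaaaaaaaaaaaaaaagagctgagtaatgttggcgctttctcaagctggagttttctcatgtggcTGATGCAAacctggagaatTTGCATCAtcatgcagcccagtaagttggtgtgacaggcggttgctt
Asns (chr6:7693210-7693459, minus strand): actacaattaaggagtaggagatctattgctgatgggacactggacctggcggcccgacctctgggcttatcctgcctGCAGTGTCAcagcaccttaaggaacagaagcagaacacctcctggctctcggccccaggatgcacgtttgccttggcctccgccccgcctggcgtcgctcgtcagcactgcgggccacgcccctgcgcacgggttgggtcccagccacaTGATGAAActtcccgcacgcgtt
Chac1 (chr2:119350992-119351241, plus strand): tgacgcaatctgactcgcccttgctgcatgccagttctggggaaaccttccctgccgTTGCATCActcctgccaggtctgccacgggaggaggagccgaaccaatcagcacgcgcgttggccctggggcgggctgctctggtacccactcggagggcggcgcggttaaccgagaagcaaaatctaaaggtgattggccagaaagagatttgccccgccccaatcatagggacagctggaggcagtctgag
Ppp1r15a (chr7:45526269-45526518, minus strand): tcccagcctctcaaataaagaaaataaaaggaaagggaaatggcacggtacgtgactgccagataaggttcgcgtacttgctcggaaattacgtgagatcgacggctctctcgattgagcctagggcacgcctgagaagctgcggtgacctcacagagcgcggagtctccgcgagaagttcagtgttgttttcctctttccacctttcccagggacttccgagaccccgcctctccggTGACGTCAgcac
Ddit3 (chr10:127290543-127290792, plus strand): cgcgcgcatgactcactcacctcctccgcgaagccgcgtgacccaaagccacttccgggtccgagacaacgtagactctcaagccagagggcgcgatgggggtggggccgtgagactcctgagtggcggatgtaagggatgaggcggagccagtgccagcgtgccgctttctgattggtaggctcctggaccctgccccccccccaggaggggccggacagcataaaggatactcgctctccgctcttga

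In Slc7a11 the cores begin 66 and 47 bases before the start and run in opposite directions. In Asns the ATF4-type core begins 23 bases before the start and the antioxidant-type match, read on the other strand, 172 bases before it. The core of Chac1 begins 193 bases before the start, and TGACGTCA of Ppp1r15a begins 12 bases before it. The matches in Trib3 and the antioxidant-type match of Ppp1r15a lie 14 and 3 bases after the start.

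The members fell into a detected set and a set near the limit of detection. Atf4, the central transcription factor of the response, and Ddit3 were above 0 in all 16 libraries, at 7.28 to 53.5 FPKM and 3.99 to 26.9 FPKM. Ppp1r15a (GADD34), the regulatory subunit of a phosphatase that dephosphorylates eIF2 and ends the response, spanned 0 to 64.3 FPKM. By their means over the 16 libraries, Atf4 had rank 2372, Ppp1r15a rank 3794 and Ddit3 rank 3904 among the 55385 genes. The ranges of these 3 genes overlap, so their order is not separated by the spread of the libraries. Asns, which makes asparagine, reached 20.4 FPKM in 1 library and was listed at 0 in 8. Ddit4 (REDD1), an inhibitor of mTORC1, reached 6.34 FPKM, Atf5, a transcription factor related to Atf4, 3.66 FPKM, and Sesn2, a stress-induced inhibitor of mTORC1, 3.30 FPKM. Slc7a11, the cystine importer xCT, stayed between 0.139 and 0.608 FPKM. Trib3, a pseudokinase that restrains ATF4 and CHOP, passed the limit set by 3 reads (0.0899 to 0.163 FPKM) in 1 library, and Chac1, which degrades glutathione, passed its limit (0.117 to 0.212 FPKM) in 2 libraries.

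**Figure D1:**
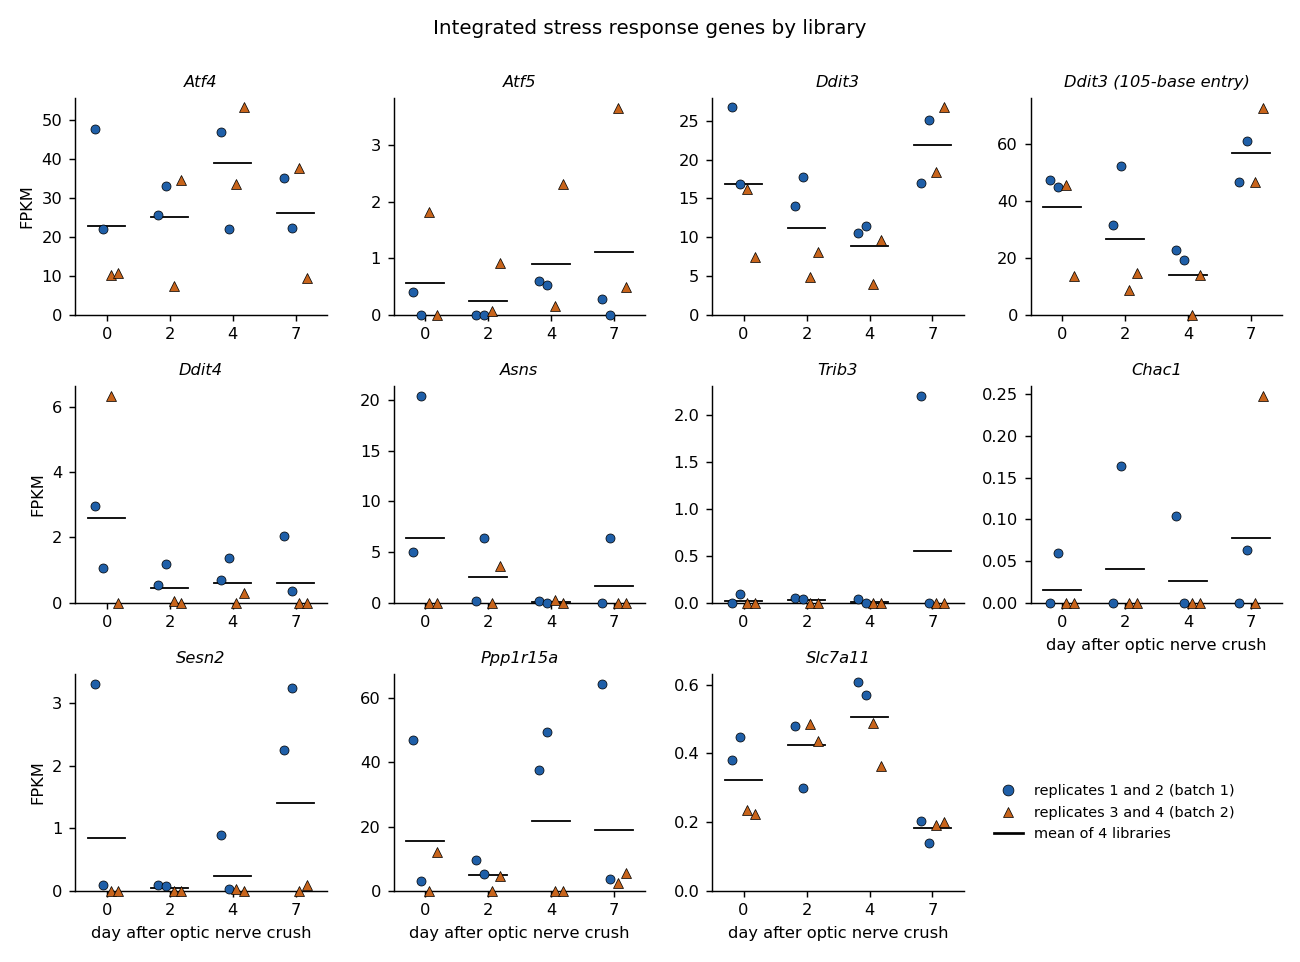
FPKM of the 11 entries in each library against the day after optic nerve crush, on linear axes that start at 0; circles are replicates 1 and 2 (batch 1), triangles replicates 3 and 4 (batch 2), and bars the mean of 4 libraries. Ddit3 sits higher at day 7 than at day 4 in every library, while Asns, Trib3, Chac1 and Sesn2 rest on a few libraries.

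The values at 0 were unevenly spread over the batches. Of 88 values in each batch, 13 were listed at 0 in batch 1 and 36 in batch 2. Over the whole table, 20303 to 31906 genes were above 0 in a library of batch 1. In batch 2 there were 16077 to 30899, so the unevenness is not shown to be particular to the members. Sesn2 was at 0.1 FPKM or more in 4 libraries of batch 1 and in 0 libraries of batch 2, and Ddit4 was listed at 0 in 0 libraries of batch 1 and 5 of batch 2. Atf5 went the other way, with 4 values at 0 in batch 1 and 1 in batch 2. Reads ran from 8647276 to 11697109 in batch 1 and from 9559912 to 15708302 in batch 2. All 37 mitochondrial genes of the table are listed at 0, so a value of 0 is given only as listed.

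After a filter that asked for at least 1 FPKM in at least 4 libraries, 14795 genes were tested, and they included 6 of the 11 entries: Atf4, both entries of Ddit3, Ddit4, Asns and Ppp1r15a. Outside it were Atf5, Trib3, Chac1, Sesn2 and Slc7a11. By limma with Benjamini-Hochberg adjustment over all 14795 genes, 0 of the 6 entries passed an adjusted p of 0.05 in any of the 5 comparisons or in the F test over the 4 days. The genes that passed were 46 at day 2 against day 0 (0.311% of those tested), 790 at day 4 against day 0 (5.34%), 60 at day 7 against day 0 (0.406%), 67 at day 4 against day 2 (0.453%), 241 at day 7 against day 4 (1.63%) and 427 in the F test (2.89%). With shares this low, 0 of 6 does not set the members apart from the other genes. At an unadjusted p under 0.05 there were 3 of 30 pairs of entry and comparison, all of them in Ddit3 and its short entry. Of all tested genes, 9.73% to 20.9% were under that p in each comparison, so 3 of 30 is no more than the background. The 95% intervals of the 30 changes reached from 0.844 to 2.399 to each side. These widths belong to an unadjusted p of 0.05, and a call after adjustment asks for larger changes. Ddit3 at day 7 against day 4, with a change of 1.26, did not pass (adjusted p = 0.121, limma).

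**Figure D2:**
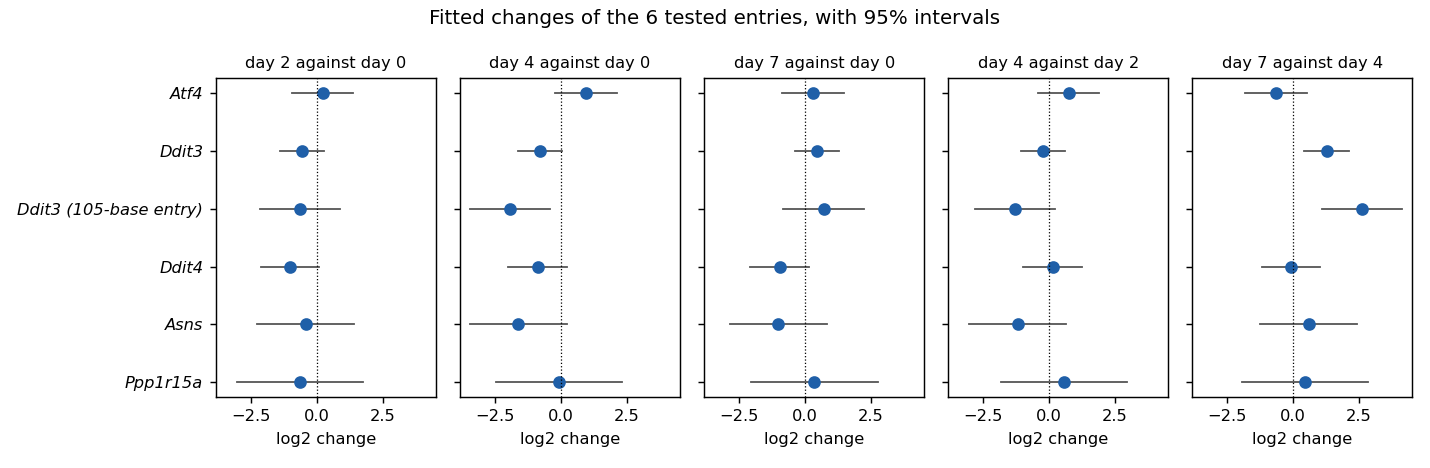
Fitted log2 changes of the 6 tested entries in the 5 comparisons (later day against earlier day), with 95% intervals from limma; the dotted line is no change. Ddit3 and its 105-base entry at day 7 against day 4 lie farthest above 0 (1.26 and 2.63), and the intervals of Ppp1r15a are the widest.

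Ddit3 encodes CHOP, the transcription factor that acts late in the response, pairs with C/EBP proteins and can promote cell death. The gene (ENSMUSG00000025408.15) lies on the plus strand at chr10:127290774-127296288 of GRCm38. Its level was 16.98, 25.2, 18.4 and 26.9 FPKM in the libraries of day 7, against 10.6, 11.5, 3.99 and 9.60 FPKM in those of day 4. Every library of day 7 was above every library of day 4. At day 2 it was 14.1, 17.8, 4.81 and 8.11 FPKM, and at day 0 it was 26.9, 16.8, 16.3 and 7.38 FPKM. The libraries of day 0 overlap those of every later day.

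The means of Ddit3 were 21.9 ± 4.89 FPKM at day 7 and 8.91 ± 3.37 FPKM at day 4 (SD, n = 4 each), a ratio of 2.45. On the log2 scale the change was 1.26 ± 0.40 (SE; 95% interval 0.42 to 2.11), with an adjusted p of 0.121 by limma, so it did not pass. It was 0.85 within batch 1, where days 7 and 4 differ in full title code, and 1.68 within batch 2, where they share it. An exact two-sided permutation test of the 4 against 4 libraries gave p = 0.0286, the smallest it can give, and 330 of the 14795 tested genes (2.23%) had all libraries of day 7 above all of day 4. Day 4 against day 0 gave -0.81 ± 0.40 (adjusted p = 0.263, limma), day 2 against day 0 gave -0.56 ± 0.40 (adjusted p = 0.695) and day 7 against day 0 gave 0.46 ± 0.40 (adjusted p = 0.675).

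Marker levels of several other cell types, given here without a test, also stood higher or lower at day 7 than at day 4. The mean log2(FPKM + 1) over 12 genes of Mueller glia and astrocytes was 3.63 to 5.98 in the libraries of day 7 and 2.59 to 3.55 in those of day 4, and that over 10 bipolar cell genes was 1.38 to 3.91 at day 7 and 0.03 to 1.73 at day 4. The summed levels of the Mueller glia and astrocyte genes overlapped, at 2208.8 to 3837.7 FPKM at day 7 and 640.1 to 6561.1 FPKM at day 4, while those of the bipolar genes did not, at 59.3 to 352.0 FPKM at day 7 and 0.213 to 54.6 FPKM at day 4. The sum of 6561.1 FPKM was that of day 4 replicate 3. In this library 5 of the 12 Mueller glia and astrocyte genes were listed at 0, and their mean log2 was 2.59. With the mean levels of the Mueller glia and bipolar lists as covariates, the change of Ddit3 at day 7 against day 4 was 0.97 (adjusted p = 0.593, limma). The summed level of 10 genes of T, NK and B cells was low and did not overlap, at 23.0 to 31.8 FPKM at day 7 and 0.492 to 15.6 FPKM at day 4. Of these genes, 8, 6, 4 and 4 were listed at 0 in replicates 1 to 4 of day 7. In those of day 4 it was 7, 5, 8 and 4, so each sum rests on a part of the list. The summed level of 7 genes of border-associated macrophages was lower without overlap, at 14.4 to 81.0 FPKM at day 7 and 88.1 to 370.6 FPKM at day 4. Rod and monocyte genes overlapped, with sums of 3307.1 to 5978.6 FPKM and 6.81 to 26.7 FPKM at day 7 and 1673.1 to 4404.2 FPKM and 0.381 to 13.7 FPKM at day 4. The part of these cells in the level of Ddit3 was not tested beyond the fit with these covariates.

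The short entry (ENSMUSG00000116429.1) spans chr10:127290829-127293753 and lies wholly in exons of Ddit3, so its reads and those of the gene cannot be told apart by position. It makes up 6.13% of the length of the gene. It stood at 46.7, 61.0, 46.6 and 72.7 FPKM at day 7, against 22.8, 19.3, 0 and 13.8 FPKM at day 4. The libraries of these days did not overlap, as for the whole gene, and this is not a separate observation because the entry lies within it. The change was 2.63 ± 0.71 (adjusted p = 0.0780, limma), with 1.31 within batch 1 and 3.94 within batch 2, and it rests on at most 75.2 reads in a library. At day 4 against day 0, where the libraries of day 0 held 47.3, 44.8, 45.5 and 13.5 FPKM, it was -1.93 ± 0.71 (adjusted p = 0.131). Ddit3 also shares 3.97% of its bases with Mars, the methionyl-tRNA synthetase gene on the opposite strand, and the libraries do not mark strand. Mars had an estimate of the opposite sign at day 7 against day 4, -2.07 ± 0.67 (adjusted p = 0.136, limma).

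Atf4 (ENSMUSG00000042406.8, chr15:80255184-80257541, plus strand) was present in every library with no pattern over the days that the test picked out. It stood at 10.2 to 47.7 FPKM at day 0, with the values 47.7, 22.0, 10.2 and 10.8 FPKM. It was 25.7, 33.2, 7.28 and 34.6 FPKM at day 2, then 47.0, 22.0, 33.6 and 53.5 FPKM at day 4 and 35.2, 22.2, 37.7 and 9.43 FPKM at day 7. The 4 days overlap in each pair. Day 4 had the highest mean, 39.0 ± 14.0 FPKM, against 22.7 ± 17.5 FPKM at day 0 (SD, n = 4 each), a change of 0.95 ± 0.55 with an adjusted p of 0.351 (limma). Within batch 1 that change was -0.01 and within batch 2 it was 1.91. The profile of Atf4 over the 16 libraries was nearest to those of Tbp, Oip5os1 and Zfp207, with a mean absolute difference of 0.31, 0.41 and 0.42 on the centred log2 scale, against a median of 1.004 over 10526 candidate genes. For Ddit3 the nearest were Ermard, Tma7 and Glo1 (0.30, 0.34 and 0.35, against a median of 1.03 over 10689 candidates). Genes picked as the nearest lie below the median by that choice, so the medians give a scale and do not test likeness. Tbp and Ermard had low means, 2.23 and 2.02 FPKM.

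Ppp1r15a (ENSMUSG00000040435.12, chr7:45522916-45526268, minus strand) spread widely within each day. At day 0 it was 46.9, 2.96, 0 and 12.2 FPKM, and at day 2 it was 9.45, 5.37, 0.0712 and 4.71 FPKM. At day 4 it was 37.6 and 49.4 FPKM in batch 1 and 0.0132 and 0 FPKM in batch 2, and at day 7 it was 64.3, 3.54, 2.45 and 5.56 FPKM. A high value occurred in at least 1 library of days 0, 4 and 7, and day 2 had none above 10 FPKM. The change at day 4 against day 0 was -0.08 ± 1.12 (adjusted p = 0.976, limma), made of 1.68 within batch 1 and -1.85 within batch 2. Ier2, an immediate early gene that cell dissociation also raises, stood at 176.48, 134.06, 196.68 and 164.67 FPKM in these libraries of day 4. Whether dissociation had a part in the level of Ppp1r15a was not tested. Tmem184c, Wrb and Gclc had the nearest profiles to Ppp1r15a, at 1.03, 1.04 and 1.06 against a median of 1.85 over 5836 candidates. Here too the median gives a scale only.

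Asns (ENSMUSG00000029752.12, chr6:7675169-7693254, minus strand) was detected in part of the libraries. At day 0 it stood at 4.95 and 20.4 FPKM in batch 1 and was listed at 0 in both libraries of batch 2. It was 0.127, 6.37, 0 and 3.67 FPKM at day 2, then 0.172, 0, 0.227 and 0 FPKM at day 4 and 0, 6.43, 0 and 0 FPKM at day 7. No library of day 4 passed 0.228 FPKM, while the other days had 1 to 2 libraries above 3 FPKM. The change at day 4 against day 0 was -1.62 ± 0.86 (adjusted p = 0.309, limma). Without day 0 replicate 2 it was -0.89, and this library alone held 567 of the 697 reads of day 0.

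Ddit4 (ENSMUSG00000020108.4, chr10:59949669-59951834, minus strand) and Sesn2 (ENSMUSG00000028893.8, chr4:132492032-132510501, minus strand) both restrain growth signalling through mTORC1. Ddit4 was 2.97, 1.06, 6.34 and 0 FPKM at day 0, and its later values ran from 0 to 1.20 FPKM at day 2, 0 to 1.37 FPKM at day 4 and 0 to 2.06 FPKM at day 7. Its changes against day 0 were -1.02 ± 0.52 at day 2, -0.88 ± 0.52 at day 4 and -0.97 ± 0.52 at day 7, with adjusted p of 0.555, 0.364 and 0.471 (limma). All 3 later days lay below day 0 in their estimates, and they share its libraries. Without day 0 replicate 3, the highest library, these estimates were -0.39, -0.25 and -0.33. Sesn2 was at 3.30 FPKM in day 0 replicate 1, 0.886 FPKM in day 4 replicate 1, and 2.26 and 3.24 FPKM in replicates 1 and 2 of day 7. These 4 libraries are of batch 1, and the other 12 were at or under 0.0998 FPKM.

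Atf5 (ENSMUSG00000038539.15, chr7:44812256-44816658, minus strand) was at 3.66 FPKM in day 7 replicate 3, 2.31 FPKM in day 4 replicate 4 and 1.82 FPKM in day 0 replicate 3, while its other 13 libraries did not exceed 0.916 FPKM. It shares 4.11% of its bases with exons of Nup62 and Il4i1 on the opposite strand. Trib3 (ENSMUSG00000032715.9, chr2:152337422-152344032, minus strand) had 45.3 reads in day 7 replicate 1, or 2.196 FPKM, and no more than 2 reads in any other library. Chac1 (ENSMUSG00000027313.3, chr2:119351229-119354381, plus strand) had 11 reads over the 16 libraries together, with a highest value of 0.248 FPKM at day 7. At this depth no difference between days was detectable in Trib3 or Chac1, whose ATF4-type cores are described above.

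Slc7a11 (ENSMUSG00000027737.10, chr3:49892526-50443614, minus strand) had the most even low values. At day 7 it was 0.203, 0.139, 0.191 and 0.201 FPKM, against 0.608, 0.569, 0.487 and 0.363 FPKM at day 4 and 0.381, 0.447, 0.235 and 0.224 FPKM at day 0. At day 2 it was 0.481, 0.299, 0.484 and 0.436 FPKM. All libraries of day 7 lay below all of days 4, 2 and 0. Day 7 shares no full title code with day 0, and shares it with day 4 in batch 2 only and with day 2 in batch 1 only. The part of the code in the level of Slc7a11 was not tested. The difference of the means was -0.35 at day 7 against day 4 and -0.16 at day 7 against day 0 on the log2(FPKM + 1) scale, each with p = 0.0286 in an exact two-sided permutation test, the smallest that 4 against 4 allow. These are among 4 of 55 such tests of the entries at that value, the other 2 being those of Ddit3 at day 7 against day 4. Of 733 genes outside the filter and above 0 in all 16 libraries, 60 (8.19%) had all libraries of day 7 below all of day 4, 8 (1.09%) below all of day 0 and 36 (4.91%) below all of day 2. In a fit with no filter, limma gave adjusted p of 0.693 and 0.877 for day 7 against days 4 and 0.

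The value of Slc7a11 is uncertain, because part of its transcript resembles an abundant gene. Bases 3772 to 4356 of a transcript of 9223 bases are 92.5% identical, over 585 bases, to Tuba1b, a gene of the alpha-tubulin from which microtubules are built, and 15 other genes in all have such a copy. Tuba1b averaged 129.7 ± 55.0 FPKM at day 7, against 539.5 ± 50.5 FPKM at day 4 and 189.8 ± 32.6 FPKM at day 0 (SD, n = 4 each). Slc7a11 and Tuba1b both had their highest mean at day 4 and their lowest at day 7. The processing notes do not tell how reads with several matches were counted. The recovered reads of Slc7a11 were not whole in any library (18.74 to 98.99 reads), while its exons share no bases with another gene of the table. Some of its reads were thus counted as fractions, and the part of tubulin reads among them was not tested. Fractions are not particular to Slc7a11. Atf4 had 528.5 reads in day 0 replicate 2 and Trib3 45.25 in day 7 replicate 1, and neither shares exon bases with another gene. None of the other 9 members has a near copy in another gene, by the same search.

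**Figure D3:**
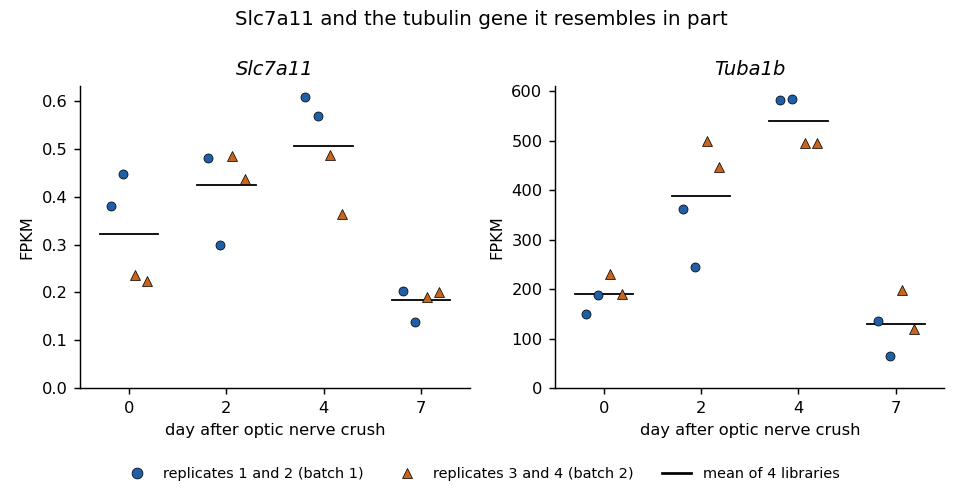
FPKM of Slc7a11 and of Tuba1b, which a stretch of the Slc7a11 transcript resembles, in each library by day; circles are batch 1, triangles batch 2 and bars the mean of 4 libraries, on linear axes that start at 0. The libraries of day 7 are lowest for Slc7a11 (0.139 to 0.203 FPKM), and the Tuba1b mean is lowest there too (129.7 FPKM) and highest at day 4 (539.5 FPKM).

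Other genes of the pathway were read from lists. Each count of calls, here and below, is to be read beside the share of all tested genes that passed. That share was 5.34% at day 4 against day 0, 1.63% at day 7 against day 4 and 0.453% at day 4 against day 2. A single call in a list does not set the list apart from the other genes. Of the 4 kinases that phosphorylate eIF2, Eif2ak1 (HRI), Eif2ak2 (PKR) and Eif2ak3 (PERK) were tested and 0 passed in any comparison, and Eif2ak4 (GCN2) did not reach the filter. At day 4 against day 0 their median change was 0.19, beside 0.16 over all genes tested. Of 16 genes for eIF2, its exchange factor eIF2B and the phosphatase machinery, 1 was higher at day 4 than at day 0 and 0 lower, with a median of 0.83. That gene was Eif2s1, the alpha subunit that the kinases phosphorylate, at 79.6 ± 16.0 FPKM at day 4 and 12.1 ± 8.84 FPKM at day 0 (SD, n = 4 each), a rise of 3.14 ± 0.66 (adjusted p = 0.0135, limma). Eif2s1 has processed pseudogenes that match up to 96.8% of 949 bases. Among 11 bZIP partners and related factors 0 passed. Nupr1, a small stress protein that acts with ATF4 and CHOP, stood at 20.1, 15.7, 18.3 and 16.3 FPKM at day 7 and 8.42, 12.1, 0.154 and 2.54 FPKM at day 0, with a change of 1.97 ± 0.55 that did not pass (adjusted p = 0.174, limma).

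Of 8 tested genes of amino acid synthesis, 1 rose at day 4 against day 0, with a median of 2.14. That gene was Phgdh, the first enzyme of serine synthesis, at 110.4 ± 39.8 FPKM at day 4 and 16.3 ± 12.2 FPKM at day 0, a rise of 2.93 ± 0.56 (adjusted p = 0.00905, limma), with near copies in pseudogenes. At day 7 against day 4 the median was -1.99 and 1 gene fell. That was Psat1, the next enzyme of the path, at 9.77, 0.462, 0 and 0 FPKM at day 7 and 33.9, 46.6, 26.4 and 28.2 FPKM at day 4, and it fell by 4.09 ± 0.88 (adjusted p = 0.0324, limma). Mthfd2, a mitochondrial enzyme of folate metabolism, had a change of 2.58 ± 0.72 at day 4 against day 0 that did not pass (adjusted p = 0.0530). Of 6 transporters of amino acids and 18 cytosolic aminoacyl-tRNA synthetases, 0 passed in any comparison. The synthetases had a median of 0.97 at day 4 against day 0 and -1.30 at day 7 against day 4, beside 0.16 and -0.25 over all genes tested.

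In the branch of the unfolded protein response run by ATF6 and XBP1, 4 of 17 genes rose at day 4 against day 0 (median 0.63). At day 7 against day 4, 5 of 17 fell (median -1.33). Of all tested genes, 5.34% and 1.63% passed in these comparisons, in either direction. Manf, a protein secreted under endoplasmic reticulum stress, stood at 9.75 ± 1.54 FPKM at day 7 and 37.97 ± 5.80 FPKM at day 4, and fell by 1.86 ± 0.29 (adjusted p = 0.00636, limma). Hspa5 (BiP), the main chaperone of the endoplasmic reticulum, fell by 1.27 ± 0.25 between these days (adjusted p = 0.0205), Pdia6, a disulfide isomerase, fell by 1.88 ± 0.29 (adjusted p = 0.00614) and Sdf2l1, a partner of the chaperones, fell by 2.22 ± 0.40 (adjusted p = 0.0127). The fifth gene was Calr, a calcium-binding chaperone, which fell by 1.48 ± 0.34 (adjusted p = 0.0426), passed in 4 of 16 fits without 1 library (up to 0.154 in the others) and has a near copy in a pseudogene. At day 4 against day 0 Manf, Hspa5, Pdia6 and Sdf2l1, in this order, rose by 1.71, 0.98, 1.04 and 1.78. Both comparisons use the libraries of day 4. The estimates of Ddit3 had the opposite sign in both comparisons (1.26 and -0.81) and passed in neither. Rescaling the libraries by a median of ratios lowered the median change over all genes from 0.16 to -0.16 at day 4 against day 0, and at the other comparison of day 4 raised it from -0.25 to 0.05. It also turned the higher and lower calls from 684 and 106 into 158 and 119 at day 4 against day 0, and from 19 and 222 into 31 and 40 at day 7 against day 4. Under it, Hspa5, Pdia6 and Sdf2l1 no longer passed at day 4 against day 0 (0.51, 0.57 and 1.31). Neither did Hspa5, Manf, Sdf2l1 and Calr at day 7 against day 4 (-0.82, -1.41, -1.77 and -1.03), so that of the 5 that fell Pdia6 alone still passed (-1.43). Of the other list genes named in this account, Phgdh, Hmox1 and Ndrg1 still passed under this scaling, while Eif2s1, Psat1, Prdx1, Cdkn1a, Txnrd1 and Ier2 did not (adjusted p of 0.0511 to 0.106, limma).

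**Figure D4:**
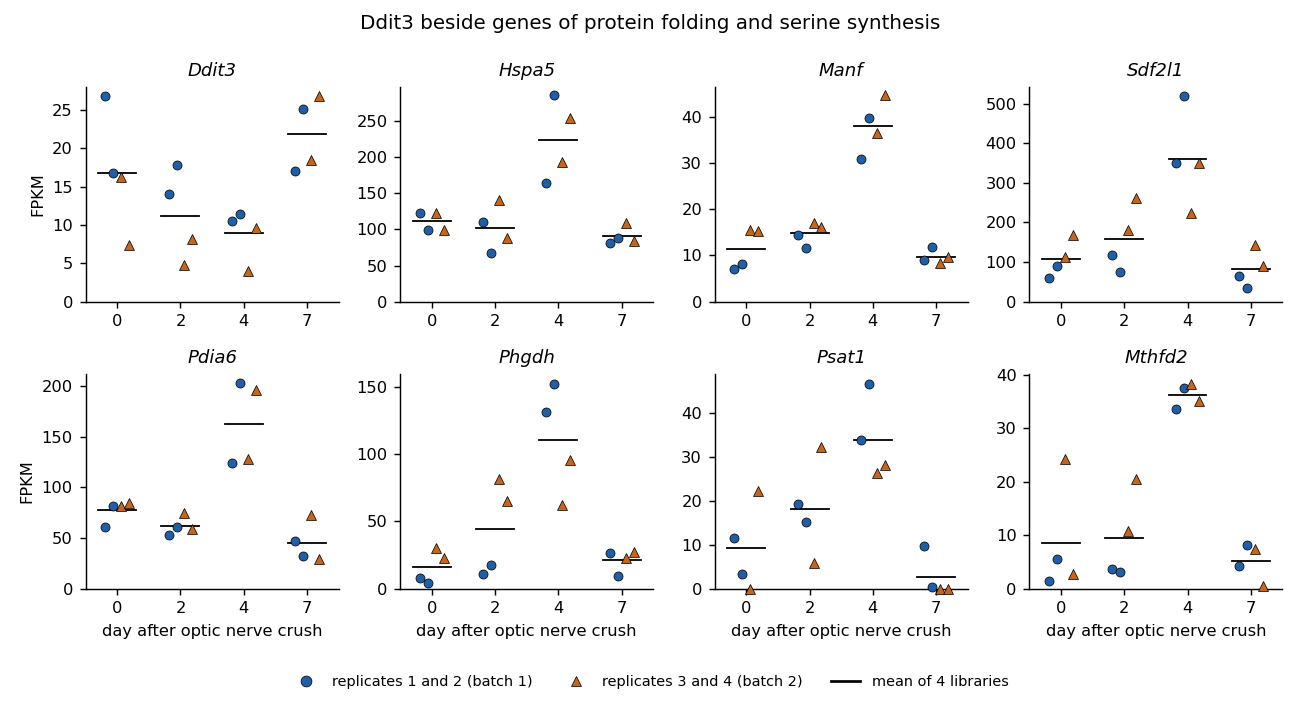
FPKM of Ddit3 beside Hspa5, Manf, Sdf2l1 and Pdia6 of the endoplasmic reticulum and Phgdh, Psat1 and Mthfd2 of serine and folate metabolism, by library and day; circles are batch 1, triangles batch 2 and bars the mean of 4 libraries, on linear axes that start at 0. The mean of Ddit3 is lowest at day 4 (8.91 FPKM), where the means of the other 7 genes are highest.

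Lists for other stress pathways that share targets with the members were read in the same way. Of 12 tested genes reported elsewhere as targets of ATF4 or CHOP, Hmox1, which breaks down haem, rose by 3.50 ± 0.67 at day 4 against day 0 (adjusted p = 0.00920, limma), Cdkn1a, an inhibitor of the cell cycle, rose by 2.51 ± 0.65 (adjusted p = 0.0373) and Ndrg1, a gene of the hypoxia response, fell by 2.3 ± 0.60 (adjusted p = 0.0398). Of 9 targets of NRF2, the factor that also drives Slc7a11, 3 rose at day 4 against day 0, where 5.34% of all tested genes passed. They were Hmox1, Prdx1 and Txnrd1, with a median of 1.25 over the list. Gdf15 and Fgf21, secreted signals of this response in other tissues, stayed at or under 1.38 FPKM and 0.164 FPKM. Of 8 p53 targets 1 rose at day 4 against day 0 (Cdkn1a), of 9 hypoxia genes 1 fell (Ndrg1), and of 6 glucocorticoid-responsive genes and 11 mTORC1 regulators 0 passed in any comparison. Of 22 immediate early and dissociation genes, 1 was higher at day 4 than at day 2 (Ier2, 3.43 ± 0.58, adjusted p = 0.0208, limma).

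Some of these calls on list genes depended on the fit or on single libraries. Within batch 2 alone 0 genes of the whole table passed, and with the bipolar and Mueller glia lists as covariates Ier2 was the only one of the list genes named above that still passed. Phgdh, Manf, Hmox1 and Prdx1 passed without any single library, as did Pdia6 at day 7 against day 4. Eif2s1 missed without day 4 replicate 2 (adjusted p = 0.0519, limma). At day 7 against day 4, Hspa5 missed without replicate 2 or 4 of day 4 or replicate 2 of day 7 (up to 0.0922), and Sdf2l1 missed without replicate 1 or 2 of day 4 or replicate 2 of day 7 (up to 0.0558). At day 4 against day 0, Hspa5 missed without replicate 2 or 4 of day 4 or replicate 2, 3 or 4 of day 0 (up to 0.126), and Sdf2l1 missed without replicate 1 or 2 of day 4 or replicate 1 of day 0 (up to 0.0736). Pdia6 at that comparison passed in 2 of 16 such fits, those without replicates 3 and 4 of day 7 (up to 0.158 in the others). Psat1 missed without any 1 library of day 4 or replicate 2, 3 or 4 of day 7 (up to 0.104), Cdkn1a without any 1 library of day 4 or replicate 2, 3 or 4 of day 0 (up to 0.104), and Ier2 without any 1 library of day 4 or day 2 (up to 0.0832). Ndrg1 and Txnrd1 passed in 5 of 16 such fits each (up to 0.0984 and 0.107 in the others). Near copies in pseudogenes also exist for Psat1 and Prdx1.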

How the data were processed

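The sequenced libraries came from lysed sorted cells whose cDNA was amplified and tagged with Nextera XT, per the labels' protocols. The authors deposited FPKM values per gene, together with gene lengths, from reads mapped with STAR 2.7.2b and counted with featureCounts 1.6.1 on the genome GRCm38.p6, also called mm10; this is per the submitters' processing notes. How multiply mapped reads were shared is not given in these. From the low values, each library's reads were recovered in steps of 0.01 read (tolerance of 0.02 steps); 46.9% to 63.4% of values above 0 were whole reads, so no count model was used. The limit of 3 reads covers counting error only, while the 95% intervals come from the spread among libraries.

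Tests used limma 3.58.1 in R 4.3.3 with a trend, on log2(FPKM + 1) with a pseudocount of 1, over all 16 libraries, with day and batch as terms, two-sided, and Benjamini-Hochberg adjustment at 0.05. The batch is a reading of the first 4 of 6 digits in the titles, and the labels do not say what they stand for. All 11 entries were also compared by exact permutation of 4 against 4 libraries, the only test for those outside the filter. Near copies were searched in GENCODE transcripts with BLAST 2.17.0 (at least 90% identity over more than 100 bases), and sequences are from RefSeq. The members and gene lists were chosen with earlier results of these data known. All members are named. From each other list at most 4 tested genes with the smallest F-test p are named, with 4 exceptions. Calr was added to the ATF6 and XBP1 list because it passed. Eif2ak4, Gdf15 and Fgf21 are named for their low values and were chosen after these were seen. Profiles were compared by the mean absolute difference of centred log2 values, for the 3 tested members with the highest mean. The steps were checked on simulated data.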

Additional observations from a re-analysis of the deposited data

Results flagged for a closer look

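In 13 of 44 groups of 4 libraries, 1 library stood farther from the nearest other than Dixon's 95% critical value allows. In 7 of these 13 the other 3 libraries are listed at 0, which always meets that limit, so the rate of about 1 group in 20 that chance gives applies at most to the other 6. Trib3 was flagged for day 0 replicate 2 (0.0925 FPKM), day 4 replicate 1 (0.0402 FPKM) and day 7 replicate 1 (2.196 FPKM). Chac1 was flagged for day 0 replicate 2 (0.0601 FPKM), day 2 replicate 2 (0.164 FPKM) and day 4 replicate 1 (0.104 FPKM). Apart from the 2.196 FPKM of Trib3, these values rest on 1 to 3 reads. Sesn2 stood high in day 0 replicate 1 (3.30 FPKM) and day 4 replicate 1 (0.886 FPKM), and Atf5 in day 2 replicate 4 (0.916 FPKM) and day 7 replicate 3 (3.66 FPKM). Asns was high in day 7 replicate 2 (6.43 FPKM), its other 3 libraries of that day being listed at 0. Ppp1r15a was high in day 7 replicate 1 (64.3 FPKM). The 105-base entry of Ddit3 was low in day 0 replicate 4 (13.5 FPKM), the library in which Ddit3 itself was lowest of its day (7.38 FPKM).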

How the results depend on the processing

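In the members, 890 values were refitted under 30 alternative settings; 845 kept their direction, 45 changed sign and 0 gained a call, with a lowest adjusted p of 0.0522 (limma, the 105-base entry of Ddit3 with a filter of 5 FPKM). Ddit3 at day 7 against day 4 ran from 0.85 to 1.68 (adjusted p from 0.0698 to 0.593). The sign changes were in estimates that did not pass. Within batch 1 alone, Atf4 had -0.15 at day 2, -0.010 at day 4 and -0.21 at day 7 against day 0, Ddit3 had -0.039 at day 7 against day 0, Ddit4 had 0.026 at day 7 against day 4, and Ppp1r15a had 1.68 at day 4 against day 0 as well as, for day 7 over day 4, -1.36. Within batch 2 alone, Asns had 1.11, 0.15 and 0 at days 2, 4 and 7 against day 0 as well as, for day 7 over day 4, -0.15, and Ppp1r15a had -1.30 at day 4 against day 2. With the bipolar and Mueller glia lists as covariates, Asns had 2.00 and 1.61 at days 2 and 4 against day 0 as well as, for day 7 over day 4, -1.63, Ddit4 had 0.025 at day 7 against day 4, and Ppp1r15a had -0.41 at day 7 against day 0 as well as -0.070 at day 4 against day 2. With the full title code as covariate, Atf4 had -0.30 at day 7 against day 0, and Ppp1r15a had 0.30 and 0.83 at days 2 and 4 against day 0. Library weights gave Ppp1r15a 0.95 at day 4 against day 0 as well as -0.42 at day 7 against day 4, and median-of-ratios scaling gave Ddit4 0.059 at day 7 against day 4. A pseudocount of 0.01 gave Asns 0.42 and Ppp1r15a 0.052 at day 2 against day 0 and Ppp1r15a -1.37 at day 4 against day 2, where a pseudocount of 0.1 gave -0.26. Leaving out 1 library at a time, the ranges that crossed 0 were -0.13 to 0.63 and -0.063 to 0.66 for Atf4 at days 2 and 7 against day 0, -0.36 to 0.068 for Ddit4 at day 7 against day 4, -0.999 to 0.30 for Asns at day 2 against day 0, and, for Ppp1r15a, -1.46 to 0.17, -0.89 to 0.74 and -0.45 to 1.22 at days 2, 4 and 7 against day 0 as well as, for day 7 over day 4, -0.098 to 1.30. The exact p of Slc7a11 without 1 library ran from 0.0286 to 0.0571 at day 7 against day 4 and from 0.0286 to 0.143 at day 7 against day 0.

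The counts of genes that passed moved more. At day 2 against day 0 (46 genes) they were 14 with no filter, 126 with the full title code, 30 with a replicate block, 20 within batch 1, 0 within batch 2, 1 without both F libraries and 0 with the cell lists as covariates. For day 4 against day 0 (790 genes) they were 308 with no filter, 379 with the title code, 277 with median-of-ratios scaling, 1488 with library weights, 401 with only the 2 days compared, 303 within batch 1, 0 within batch 2 and 0 with the cell lists. At day 7 against day 0 (60 genes) they were 38 and 34 with pseudocounts of 0.1 and 0.01, 13 with no filter, 39 with no batch term, 28 with the title code, 22 with a replicate block, 2 with only the 2 days, 2 within batch 1, 0 within batch 2 and 13 with the cell lists. For day 4 against day 2 (67 genes) they were 2 with no filter, 111 with a filter of 5 FPKM, 0 with the title code, 31 with a replicate block, 20 with scaling, 204 with library weights, 32 with only the 2 days, 1 within batch 1, 0 within batch 2, 0 without both F libraries and 9 with the cell lists. At day 7 against day 4 (241 genes) they were 63 with no filter, 104 with the title code, 152 with a replicate block, 71 with scaling, 939 with library weights, 6 with only the 2 days, 0 within batch 1, 0 within batch 2 and 0 with the cell lists. The F test (427 genes) gave 120 with no filter, 245 with a replicate block, 222 with scaling, 1114 with library weights, 30 within batch 1, 0 within batch 2 and 14 with the cell lists. Leaving out 1 library gave 8 to 77, 267 to 955, 16 to 57, 2 to 104 and 62 to 256 genes in these 5 comparisons and 149 to 510 in the F test (in the order above). The count for day 4 against day 0 was 393, 267 and 499 without replicates 1, 2 and 3 of day 4. For day 7 against day 4 it was 84, 62, 157 and 117 without replicates 1 to 4 of day 4 and 81 without replicate 2 of day 7. The count for day 4 against day 2 moved by over 1.5 times without any 1 library of those days and, to 104, without day 7 replicate 4. At day 2 against day 0 this held without any 1 library of day 2 or replicate 2 or 3 of day 0, at day 7 against day 0 without any 1 library of day 7 or replicate 1 or 2 of day 0, and in the F test without any 1 library of day 4, day 0 replicate 2 or day 7 replicate 2. The causes were not tested; fits within a batch or of 2 days have fewer libraries. The replicate numbers were not taken as pairs in the main fit. Deviations of libraries with the same number correlated on average at 0.045 (-0.056 to 0.234). The average was 0.049 for the same batch with another number and -0.046 for the other batch. Such weak correlations cannot tell whether the libraries are paired, and the replicate block called 0 members. Values of 0 limit Trib3, Chac1 and Sesn2, and the width of the intervals limits Asns and Ppp1r15a.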
